A study of Mus musculus with 12 samples.

Results

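The genes described here encode 3 kinds of splicing factor: the SR proteins (symbols starting Srsf), the heterogeneous nuclear ribonucleoproteins or hnRNPs (Hnrnp), and the SF3a and SF3b complexes (Sf3a, Sf3b). They were chosen by the start of the gene symbol, with 1 pseudogene row left out. The rule uses no measured value, though it was set with earlier results of these data known. The rule gave 40 of the 30480 genes listed in any table: 11 SR, 20 hnRNP, 3 SF3a and 6 SF3b genes. All 40 were listed in every table and all 40 passed the filter on low counts in every comparison. RNA was sequenced from mouse embryonic stem cells, the cultured pluripotent cells of the early embryo, in 6 groups of 2 libraries. All groups grew in serum, leukemia inhibitory factor and the kinase inhibitors CHIR99021 and PD0325901. In the transient set a transgene for mDUX with an altered codon usage, without a tag, or a control was expressed for 24 h. The stable set was a line from single-cell clones under puromycin and G418 selection that carried TRE::3xHA-mDux, the tagged transgene in a doxycycline-inducible lentivirus, and MERVL::EGFP, a green fluorescent reporter of the retrovirus MERVL. Its groups were unsorted cells without doxycycline, unsorted cells after 24 h of doxycycline, and GFP-positive and GFP-negative cells sorted after 24 h of doxycycline. Every stable group thus carried the transgene and the reporter, and none had doxycycline without the transgene. The characteristics fields name the mDUX transgene for the transient controls too, and the groups here follow the titles.

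Splicing removes introns from a primary transcript in a large RNA and protein machine, the spliceosome. SR proteins carry an RNA-binding domain and a tail rich in arginine and serine, bind exonic enhancers and help to recruit the machine to nearby splice sites. Proteins of the hnRNP class coat the primary transcript and often keep exons out, while SF3a and SF3b are parts of the U2 particle that settle on the branch site of the intron. Many of these genes limit their own level through an exon that leads to decay of the transcript. DUX is a double-homeobox transcription factor of the early embryo that brings up a programme of the 2-cell stage.

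Counted reads per library ranged from 17914954 to 21988401 for transient, 14365741 to 18388836 for unsorted and 31870748 to 53826590 for sorted samples. Repeat families took 15.4% and 15.9% of the reads without doxycycline and 33.5% and 34.4% with it, and 4.59% and 4.40% in GFP-negative against 17.3% and 17.0% in GFP-positive libraries. The 2 libraries of a group are called A and B, and the labels do not say whether separate cultures gave rise to them. The p-values therefore rest on library-to-library spread that could be technical alone. Zscan4d, a gene of the 2-cell stage, was at 32.3 and 31.7 CPM in the transient controls and at 382.5 and 391.5 CPM with mDUX, so the RNA went with the titles. In the stable line, the summed level of 7 marker genes of 2-cell-like cells was 6.97 and 8.73 CPM without doxycycline, 8392 and 8689 with it, 141 and 130.4 in GFP-negative cells and 10250 and 9994 in GFP-positive cells. The summed level of 10 pluripotency markers was 9849 and 9943 CPM without doxycycline, 4992 and 4765 with it, 6598 and 6636 in GFP-negative cells and 3907 and 3801 in GFP-positive cells. Of 8 fibroblast, 6 endoderm and 7 trophectoderm markers, each list summed to at most 66.4 CPM in any library, and some moved with the stable-line groups. The trophectoderm sum was 64.2 and 66.4 CPM without doxycycline, 31.4 and 29.1 with it, 46.7 and 45.8 in GFP-negative and 24.3 and 24.9 in GFP-positive cells. The fibroblast sum, in the same order, was 2.39 and 2.39, 19.5 and 19.6, 3.35 and 3.22, and 16.6 and 18.2 CPM, and the endoderm sum 4.64 and 4.33, 9.63 and 9.63, 3.56 and 4.56, and 5.61 and 6.13 CPM. The part of these markers in the members' values was not tested. The marker sums are CPM from the gene reads of a library without TMM scaling. CPM of single genes, Zscan4d included, are scaled to gene reads after TMM scaling within a table, unless stated otherwise. These TMM-scaled CPM are not on 1 scale across tables, and the marker sums are not on their scale.

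Start site windows of 4 members are shown because these genes had the 2 largest rises (Srsf5 and Hnrnph1) and the 2 largest falls (Hnrnpd and Srsf10) of the unsorted comparison and were called in the same direction in the sorted one. The windows, from RefSeq on GRCm38.p6, span 250 bases before to 50 after an annotated start and read in the direction of the gene. They lie at chr12:80945249-80945548 on the plus strand for Srsf5, chr11:50376740-50377039 on the plus strand for Hnrnph1 (the most upstream of 5 windows of that gene), chr5:99978889-99979188 on the minus strand for Hnrnpd and chr4:135855821-135856120 on the plus strand for Srsf10. Capitals mark, on either strand, matches to CCAAT, to the GC box GGGCGG, to the ETS-type site CCGGAAG and to the E-box CACGTG.
Srsf5: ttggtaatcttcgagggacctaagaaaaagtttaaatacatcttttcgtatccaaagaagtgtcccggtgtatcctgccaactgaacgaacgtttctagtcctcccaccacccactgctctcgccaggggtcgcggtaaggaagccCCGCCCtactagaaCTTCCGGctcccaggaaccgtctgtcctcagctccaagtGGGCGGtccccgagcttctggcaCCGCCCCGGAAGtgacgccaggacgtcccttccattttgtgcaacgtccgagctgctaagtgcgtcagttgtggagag
Hnrnph1: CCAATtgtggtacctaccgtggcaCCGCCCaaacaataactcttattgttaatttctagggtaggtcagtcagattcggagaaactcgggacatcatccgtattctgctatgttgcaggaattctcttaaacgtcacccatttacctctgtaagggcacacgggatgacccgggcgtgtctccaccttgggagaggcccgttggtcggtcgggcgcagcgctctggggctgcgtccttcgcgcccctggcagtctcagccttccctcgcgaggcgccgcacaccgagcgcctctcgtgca
Hnrnpd: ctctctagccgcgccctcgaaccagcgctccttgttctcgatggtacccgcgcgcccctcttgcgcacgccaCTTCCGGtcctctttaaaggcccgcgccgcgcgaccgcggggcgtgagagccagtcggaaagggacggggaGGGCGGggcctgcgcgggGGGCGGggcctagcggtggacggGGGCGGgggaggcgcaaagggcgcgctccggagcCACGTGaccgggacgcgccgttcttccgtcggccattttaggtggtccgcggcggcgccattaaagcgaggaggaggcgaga
Srsf10: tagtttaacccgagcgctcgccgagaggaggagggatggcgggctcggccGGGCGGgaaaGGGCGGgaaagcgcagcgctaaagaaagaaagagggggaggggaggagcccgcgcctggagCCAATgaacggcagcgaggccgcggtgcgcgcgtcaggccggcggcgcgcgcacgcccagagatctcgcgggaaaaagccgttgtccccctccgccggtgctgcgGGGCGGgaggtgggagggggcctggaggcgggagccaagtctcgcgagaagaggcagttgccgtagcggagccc
All of these windows held at least 1 GC box, Srsf5, Hnrnpd and Srsf10 with 3 each. The ETS-type match stood in Srsf5, where 1 of its copies overlaps a GC box, and in Hnrnpd. Over all members with a window, 36 genes with 49 windows, the GC box was present in 77.6% of windows against 35.7% of 32851 windows of all genes. The ETS-type match was in 34.7% against 8.86%, CCAAT in 49% against 37.4%, the E-box in 10.2% against 7.15% and TATAAA in 10.2% against 13.6%. The cyclic AMP element TGACGTCA was in 0 of 49 member windows against 1.79% of all windows. The median GC content was 65% in member windows and 52.7% in all, and GC-rich letters are more likely to match GC-rich motifs. Among the 9 genes that rose in both stable-line comparisons, 7 had a window and 6 of these held a GC box, and among the 9 that fell in both, all had a window and 8 held one.

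Levels differed widely between members. As length-scaled CPM, gene read shares per kilobase of merged exons without TMM scaling, the mean over all 12 libraries ran from 0.666 for Srsf12, an SR-related splicing regulator, to 276 for Hnrnpab, an RNA-binding protein with a pair of RNA recognition motifs. The next highest on this scale were Hnrnpa2b1, known for exon skipping and RNA transport, at 233.1, Srsf2, a founding member of the SR family, at 163, and Hnrnpc, which binds uridine tracts, at 162. Srsf2 and Hnrnpc had nearly equal means, and which of them was higher differed between tables, so their order is not read from these means. Per library, Hnrnpab was at 346 and 281 in the transient controls and at 270.2 and 283 with mDUX, at 176 and 181 without doxycycline and 183 and 184 with it, and at 357 and 342 in GFP-negative and 345 and 363 in GFP-positive libraries. Hnrnpa2b1 was at 247 and 136 in the transient controls, 131 and 154 with mDUX, 179 and 189 without doxycycline, 163 and 154 with it, 382 and 382 in GFP-negative and 367 and 316 in GFP-positive libraries. For Srsf2 these levels were 132 and 117, 129 and 123, 303.0 and 293, 231 and 232, 119.9 and 122, and 78.8 and 73.1, in the same order. Hnrnpc stood at 156 and 132 in the transient controls, 134 and 142 with mDUX, 156 and 154 without doxycycline, 125 and 128 with it, 205 and 206 in GFP-negative and 204 and 199 in GFP-positive libraries. The order of the 4 was therefore not the same in every table, Srsf2 being highest of them in the unsorted libraries and lowest in the sorted ones. It also depended on the length used, since Hnrnpa2b1 ranked above Hnrnpab with the longest transcript in place of merged exons.

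**Figure D1:**
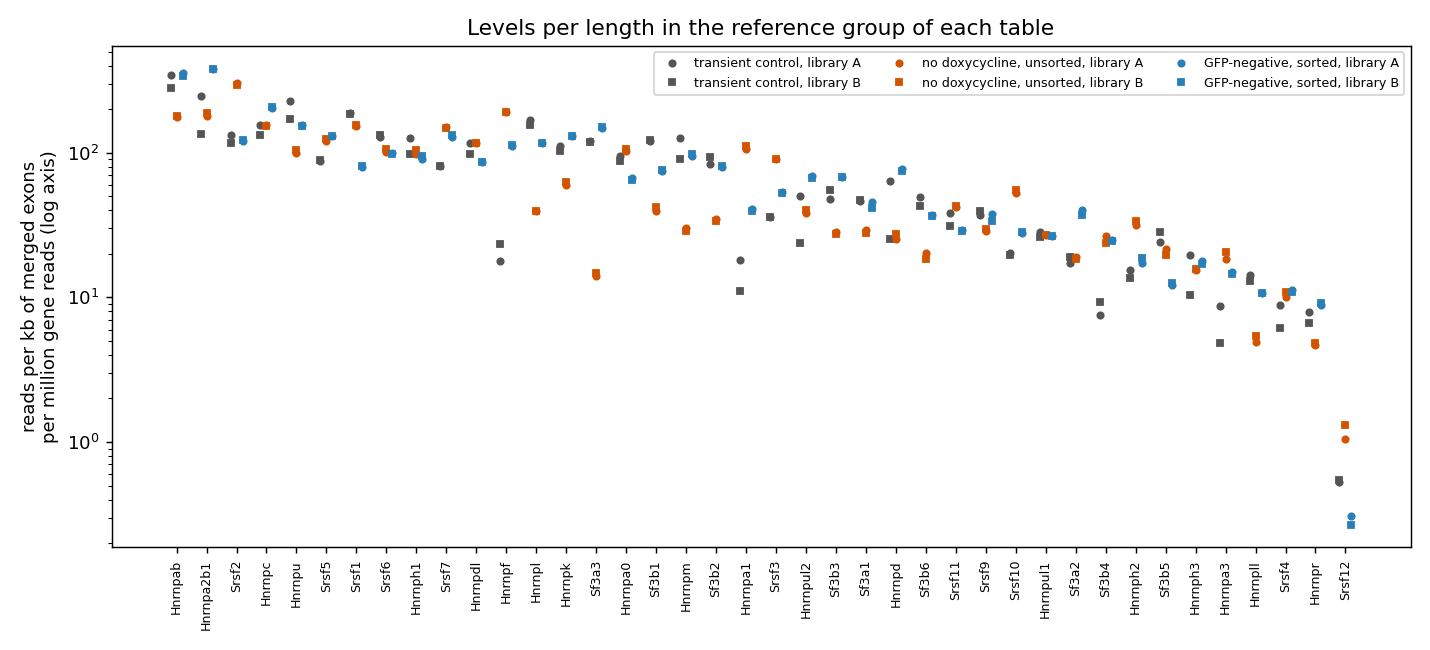
Level of each of the 40 genes, in length-scaled CPM per kilobase of merged exons (log axis), in both libraries of the reference group of each table: transient control, no doxycycline and GFP-negative. Genes are ordered by their mean over 12 libraries, from 276 for Hnrnpab to 0.666 for Srsf12, and several, such as Sf3a3 and Hnrnpf, differ strongly between tables, while the 2 transient controls stand apart for some hnRNP genes such as Hnrnpd, at 63.9 and 25.4.

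Unsorted cells of the stable line were compared with and without 24 h of doxycycline. Splicing factor genes moved in both directions and mostly by small amounts: 13 rose, 12 fell and 15 did not pass. Of all 16229 genes tested 65.2% passed in either direction, 34% as rises and 31.1% as falls, so the members' shares lay close to the background. SR genes mostly fell, 8 of 11, with Srsf5 and Srsf6 higher and a median log2 fold change of -0.22. Without doxycycline library B, 5 of 11 fell, against 24.4% of all genes, and the median was -0.14. Of hnRNP genes 6 of 20 rose and 4 fell, with a median of 0.00, of SF3a genes 1 of 3 rose and 0 fell, and of SF3b genes 4 of 6 rose and 0 fell, while the median over all genes was 0.00. The median size of the log2 change was 0.17 over the members and 0.44 over all genes, and at 1.5-fold or more 2 members rose and 2 fell, against 37.7% of all genes. Since doxycycline always came with the transgene, a response to the drug itself cannot be told apart from one to mDUX, and in these bulk libraries fewer cells of a type and less RNA per cell cannot be told apart either.

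Srsf5, an SR protein gene on chromosome 12 (80945504 to 80950507, GRCm38), had the largest rise of the 40. It stood at 447 and 459.5 CPM without doxycycline and at 941 and 953 with it, a log2 fold change of 1.06 ± 0.06 (SE) and an adjusted p of 4.22e-48 (edgeR quasi-likelihood test, adjusted by Benjamini-Hochberg over all genes tested). Both induced libraries thus lay at about the same height, well above both uninduced ones. Srsf6, the other SR gene that rose, went from 454 and 469.5 to 595 and 563 CPM (log2 fold change 0.33 ± 0.06). Among the falls, Srsf10, which acts as a repressor of splicing when it is dephosphorylated, went from 342.5 and 357 to 235.5 and 222 CPM (-0.61 ± 0.06, adjusted p = 6.23e-22). Srsf3, the smallest of the classical SR proteins, went from 662 and 660.3 to 485 and 451 CPM (-0.50 ± 0.06). The libraries of both groups were clear of each other for these genes, as they were for Hnrnpc and Hnrnpl, which did not pass. In how many of all genes the unsorted groups were clear of each other was not counted. Srsf7, an SR protein with a zinc knuckle, went from 497 and 484 to 397.5 and 383 CPM (-0.33 ± 0.06), and Srsf4, with a long arginine and serine tail, from 33.2 and 35.7 to 28.4 and 25.1 CPM (-0.37 ± 0.09). Srsf9 fell from 43.9 and 45.5 to 41.9 and 34.98 CPM (-0.23 ± 0.08, adjusted p = 0.0120), with doxycycline library A close to the uninduced ones. Srsf11, which interacts with the U2AF factor, Srsf1, the prototype of the family, and Srsf2 fell by 0.22, 0.15 and 0.14 on the log2 scale. Srsf12, at 2.92 to 3.85 CPM in all 4 libraries, gave a log2 fold change of -0.05 ± 0.25 and overlapped between groups.

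Hnrnph1, which binds runs of guanines, rose from 530.4 and 570.0 to 876 and 846 CPM (log2 fold change 0.65 ± 0.06, adjusted p = 1.30e-23 by edgeR). Its relative Hnrnph3 rose from 45.4 and 45.7 to 56.7 and 63.3 CPM (0.40 ± 0.08). The third gene of that group, Hnrnph2, moved the other way, from 128 and 137 to 122 and 113 CPM (-0.17 ± 0.06, adjusted p = 0.00849). Hnrnpd, also called AUF1, which binds AU-rich elements of short-lived messages, had the largest fall of all members, from 173 and 187 to 114 and 108 CPM (-0.70 ± 0.06, adjusted p = 4.63e-24). Every induced library was below every uninduced one for Hnrnpd. Its paralogue Hnrnpdl, at 524 and 517 against 564 and 537 CPM, had 0.08 ± 0.06 and did not pass, though its groups did not overlap either. Hnrnpu, a nuclear scaffold protein, Hnrnpul2, Hnrnpab and Hnrnpr had log2 fold changes of 0.29, 0.28, 0.26 and 0.17. Hnrnpul1 and Hnrnpf fell by 0.15 and 0.13. The other 10 hnRNP genes did not pass, among them Hnrnpa2b1 and Hnrnpk. Hnrnpa2b1 was at 1091 and 1152 against 1157 and 1091 CPM (0.00 ± 0.06) and Hnrnpk, which binds cytosine-rich RNA, at 361 and 373.5 against 363 and 368 CPM (-0.01 ± 0.06).

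In the SF3 complexes, Sf3b4, an SF3b subunit with RNA recognition motifs, rose from 53.5 and 47.6 to 71.3 and 75.3 CPM (log2 fold change 0.54 ± 0.07, adjusted p = 8.02e-12 by edgeR). Sf3b1, the largest subunit, which clamps the branch site, rose from 417 and 441 to 609 and 608 CPM (0.50 ± 0.06, adjusted p = 2.90e-16). Sf3a1, which contacts the U1 particle through its ubiquitin-like domain, rose from 167 and 159 to 215 and 232 CPM (0.46 ± 0.06). No library of these 3 genes overlapped between groups, and the same held for Sf3a3, which did not pass. As above, this was not counted over all genes. Sf3b2 had 0.22 ± 0.06 and Sf3b5 0.17 ± 0.07. The groups overlapped for Sf3b5, at 77.1 and 69.6 against 75.8 and 88.3 CPM, and its log2 fold change was 0.05 without doxycycline library B. Sf3a2 (-0.02 ± 0.08), Sf3a3 (-0.18 ± 0.09, adjusted p = 0.0546), Sf3b3 (-0.01 ± 0.06) and Sf3b6 (0.07 ± 0.08) did not pass, so subunits of 1 complex had unequal values.

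The split of rises and falls depended on the scaling. With gene totals only, where the median of all genes moved from 0.00 to -0.22, 6 members rose and 25 fell, against 25.2% of all genes higher and 46% lower. With repeat reads in the library size, median -0.35, 4 rose and 29 fell, against 21.3% and 53.5%. Hnrnpr, Sf3b2 and Sf3b5 turned negative under both of these scalings, and Hnrnpab, Hnrnpu, Hnrnpul2 and Srsf6 under the second. The calls made under every scaling, filter, tool and left-out library tried, with no minimum fold, were the rises of Srsf5, Hnrnph1, Sf3b1 and Sf3b4 and the falls of Hnrnpd, Srsf3, Srsf4, Srsf7, Srsf10 and Srsf11. How many of all genes kept their call in this way was not counted, so nothing particular to the members is read from it.

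**Figure D2:**
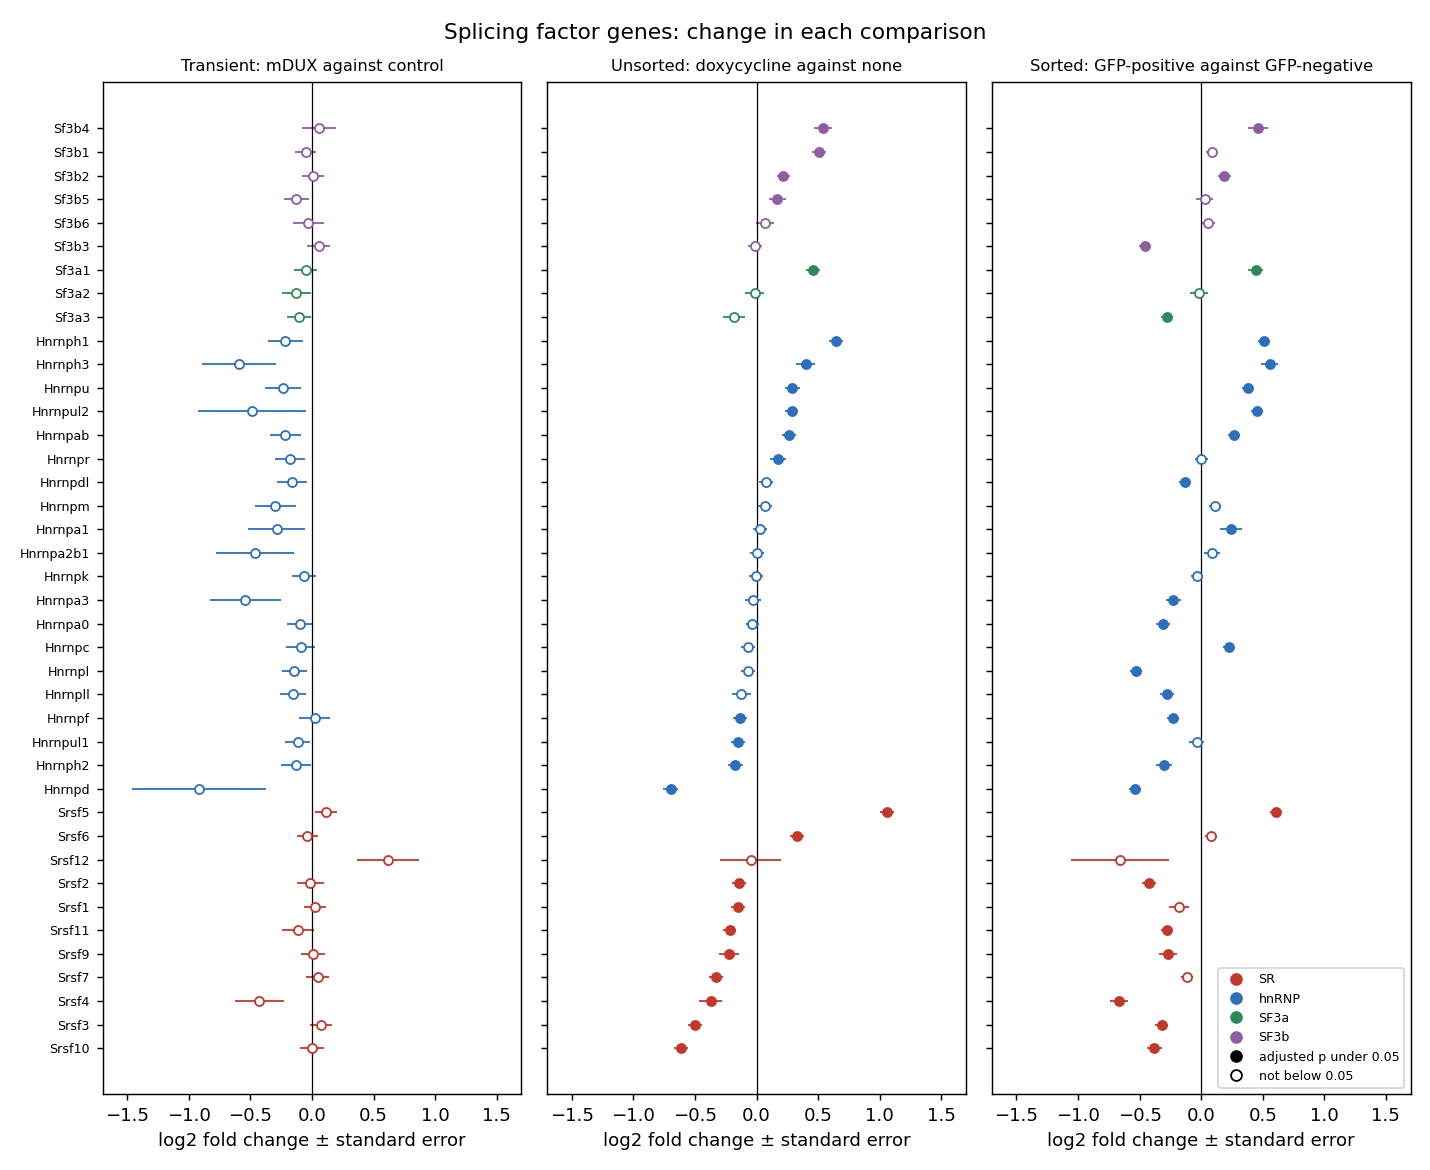
Log2 fold change ± standard error of each of the 40 genes in the transient, unsorted and sorted comparison (2 libraries against 2 in each), coloured by family, with filled points for an adjusted p under 0.05. No point is filled in the transient panel, where Hnrnpd has the lowest value and a long error bar, and SR genes lie mostly left of 0 in both stable-line panels with Srsf5 as the highest point.

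The sorted comparison asked how induced cells in which the reporter was on differed from induced cells in which it was off. The titles do not say whether both were sorted from the same cultures. Here 11 members were higher in GFP-positive cells, 16 were lower and 13 did not pass. Of all 16403 genes tested 66.3% passed in either direction, 34.3% as higher and 32% as lower. Of SR genes 6 of 11 fell and Srsf5 rose, of hnRNP genes 7 of 20 rose and 8 fell, of SF3a genes 1 rose and 1 fell, and of SF3b genes 2 rose and 1 fell. The medians were -0.28, -0.02, -0.02 and 0.07 on the log2 scale, against 0.00 over all genes. At 1.5-fold or more, Srsf5 rose and Srsf4 fell, against 40.3% of all genes. The sums of the 2-cell-like and the pluripotency markers given above differed between the sorted groups as well, and their part in these results was not tested.

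Among SR genes, Srsf5 was at 473 and 479.7 CPM in GFP-negative and at 717.5 and 732 in GFP-positive cells (log2 fold change 0.61 ± 0.05, adjusted p = 1.31e-07 by edgeR). Srsf4 stood at 36.3 and 35.8 against 22.7 and 22.7 CPM (-0.67 ± 0.07, adjusted p = 3.99e-06). Srsf2 was at 324 and 333 against 255 and 235 CPM (-0.42 ± 0.05), and Srsf10 at 177 and 182 against 147 and 129 CPM (-0.38 ± 0.06). The sorted groups did not overlap for any of these 4, nor for Srsf1, Srsf6, Srsf7 and Srsf12, which did not pass. The share of all genes without overlap was not counted. Srsf3, Srsf11 and Srsf9 fell by 0.32, 0.28 and 0.27. Srsf1 (-0.18 ± 0.08, adjusted p = 0.0715), Srsf7 (-0.11 ± 0.05, adjusted p = 0.0627) and Srsf6 (0.08 ± 0.05) did not pass. Srsf12 was at 0.889 and 0.779 against 0.321 and 0.739 CPM, and its value of -0.66 ± 0.40 did not pass.

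Hnrnph3 rose from 51.7 and 49.5 CPM in GFP-negative to 79.0 and 69.8 in GFP-positive cells (log2 fold change 0.56 ± 0.07, adjusted p = 1.26e-05 by edgeR), and Hnrnph1 from 487.5 and 509.7 to 722 and 699 CPM (0.51 ± 0.05). Hnrnpul2, related to Hnrnpu, rose from 447 and 438 to 607 and 602 CPM (0.45 ± 0.05). Both GFP-positive libraries were above both GFP-negative ones in all 3, as they were for Hnrnpm, which did not pass. Such a gap between the sorted groups was not counted over all genes. Hnrnpd fell from 517 and 508 to 348 and 359 CPM (-0.54 ± 0.05, adjusted p = 5.20e-07), and Hnrnpl, which binds CA repeats, from 635 and 637 to 434 and 448 CPM (-0.53 ± 0.05). Its paralogue Hnrnpll, a splicing regulator known from T cells, fell by 0.28. Hnrnpa0, Hnrnph2, Hnrnpf, Hnrnpa3 and Hnrnpdl fell by 0.31, 0.30, 0.23, 0.23 and 0.13. Hnrnpu, Hnrnpab, Hnrnpa1 and Hnrnpc rose by 0.38, 0.27, 0.24 and 0.22, of which Hnrnpa1 and Hnrnpc turned negative with gene totals only. For Hnrnpa1, which binds exonic silencers, GFP-positive library A had 155.5 CPM and library B 119.9, against 117 and 116 in GFP-negative cells, and without GFP-positive library A its adjusted p was 0.461. Hnrnpa2b1, Hnrnpk, Hnrnpm, Hnrnpr and Hnrnpul1 did not pass.

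Sf3b4 was at 49.4 and 49.1 CPM in GFP-negative and at 61.2 and 74.4 in GFP-positive cells (log2 fold change 0.46 ± 0.08, adjusted p = 0.000241 by edgeR), and Sf3a1 at 256 and 234 against 319.6 and 348 CPM (0.44 ± 0.06). Sf3b3, a subunit with propeller domains, was lower, at 683 and 681 against 487 and 509.9 CPM (-0.45 ± 0.05, adjusted p = 2.92e-06). These 3 genes did not overlap between the sorted groups, and neither did Sf3b1, which did not pass, while the share over all genes was not counted. Sf3a3 fell by 0.28 and Sf3b2 had 0.19 ± 0.05, turning to -0.060 with gene totals only and to -0.016 with repeats in the library size. Sf3b1, at 783 and 799 against 817 and 865 CPM, had 0.09 ± 0.05 and did not pass, as was so for Sf3a2, Sf3b5 and Sf3b6. With gene totals only, median of all genes -0.25, 7 members rose and 28 fell, against 24.7% of all genes higher and 47% lower. With repeats in the library size, median -0.20, 7 rose and 25 fell, against 26.1% and 44.3%. Calls made under every scaling, filter, tool and left-out library tried, with no minimum fold, were 7 rises (Srsf5, Hnrnph1, Hnrnph3, Hnrnpu, Hnrnpul2, Sf3a1 and Sf3b4) and 13 falls, among them Srsf2, Srsf3, Srsf4, Srsf10, Srsf11, Hnrnpd, Hnrnpl and Sf3b3. The share of all genes that kept a call under every setting was not counted, so these counts say nothing particular to the members.

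**Figure D3:**
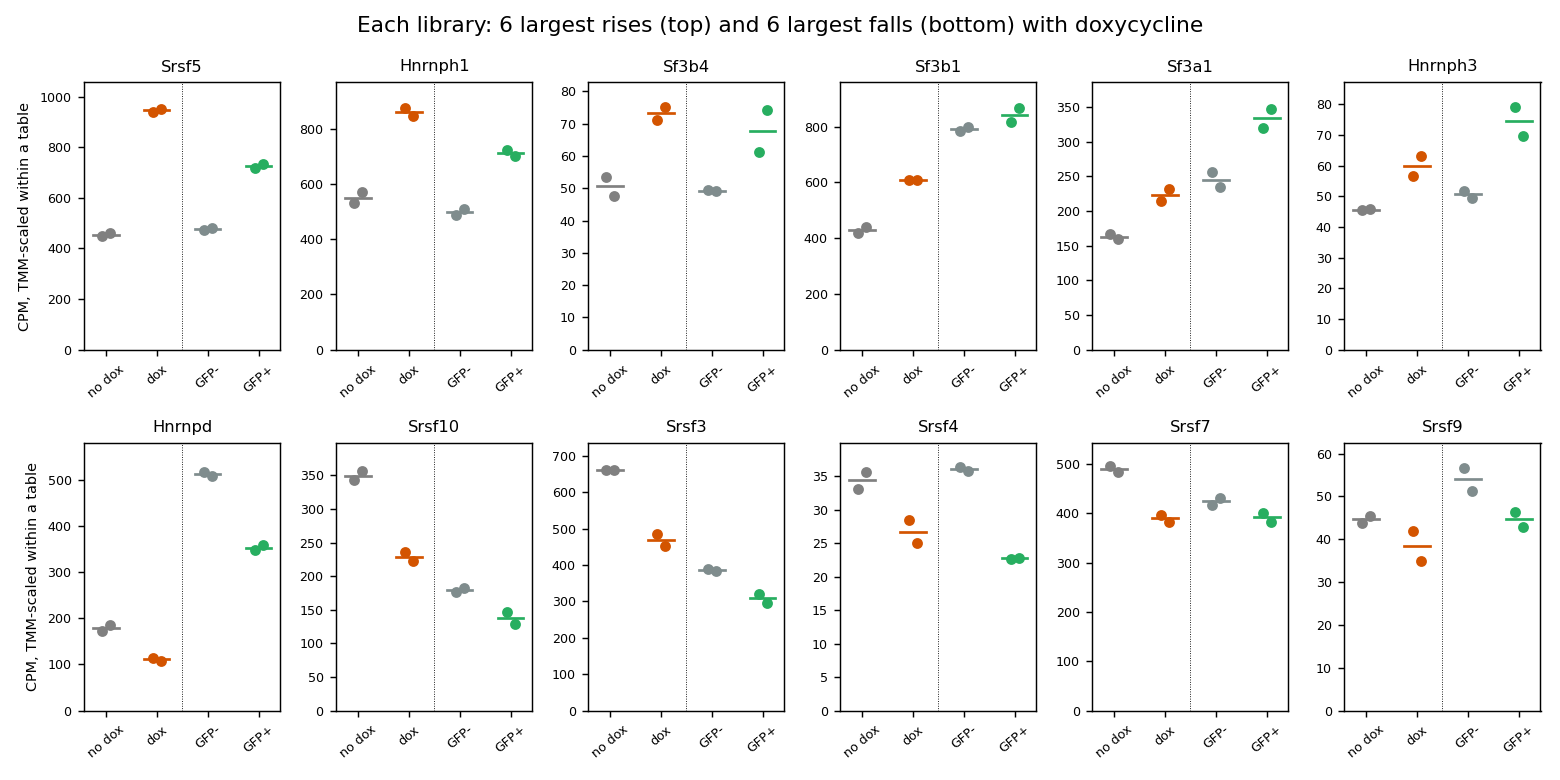
CPM of each library (points) and the mean of 2 (line) for the 6 members with the largest rise (top) and the 6 with the largest fall (bottom) after doxycycline, in unsorted cells (left of the dotted line) and in sorted cells (right of it), with every axis starting at 0 and CPM scaled within a table. Srsf5 goes from 447 and 459.5 to 941 and 953 CPM and from 473 and 479.7 to 717.5 and 732, while the sorted values of Sf3b1 and Srsf7 did not pass the test.

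The unsorted and the sorted comparison share no library, though all sorted cells were induced. Called members pointed the same way in both where both called them: 9 were higher in both, 9 were lower in both and 0 were called in opposite directions, while 6 passed in neither. Of 15281 genes tested in both, 25.8% were higher in both, 22.4% lower in both and 3.07% called in opposite directions, so the members' shares were near those of all genes. The 9 higher in both were Srsf5, Hnrnpab, Hnrnph1, Hnrnph3, Hnrnpu, Hnrnpul2, Sf3a1, Sf3b2 and Sf3b4, where Hnrnpab, Hnrnpu, Hnrnpul2 and Sf3b2 turn negative in the unsorted set, and Sf3b2 in the sorted set, under another scaling. The 9 lower in both were Srsf2, Srsf3, Srsf4, Srsf9, Srsf10, Srsf11, Hnrnpd, Hnrnpf and Hnrnph2. Of these, Srsf2, Srsf9, Hnrnpf and Hnrnph2 lost the unsorted call without some library, with adjusted p up to 0.126, 0.4998, 0.271 and 0.218 by edgeR, and Srsf9 also lost the sorted one, at 0.108. In both sets the values of single SR genes thus ran from a rise for Srsf5 to falls for Srsf4 and Srsf10, with the order among the falls not the same.

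The difference between both effects was tested in 1 fit of the 8 stable-line libraries. The sorted effect was lower than the unsorted one for 12 members and higher for 1. Of 17820 genes tested 30.5% passed in either direction, 3670 as lower and 1759 as higher. The median of all genes in this contrast was -0.13. Without GFP-positive library A the split turned to 12 higher and 4 lower, against 23.7% and 9.99% of all genes, with a median of all genes of 0.12, and without library B to 12 and 4, against 23.5% and 10.9%, with a median of 0.11. With median-ratio size factors, where that median was 0.02, 6 members were higher and 6 lower. All genes then gave 30.3% in either direction, 2961 higher and 2443 lower. The differences that passed under both scalings were those of Srsf5 (-0.54 ± 0.07, and -0.40 with median-ratio factors), Hnrnpl (-0.54 ± 0.08, and -0.40), Sf3b3 (-0.53 ± 0.08, and -0.38), Sf3b1 (-0.50 ± 0.08, and -0.36), Srsf2 (-0.37 ± 0.08, and -0.22), Hnrnpa0 (-0.36 ± 0.08, and -0.22) and Hnrnpc (0.21 ± 0.08, and 0.35). Of these, Srsf5, Hnrnpl, Sf3b1 and Sf3b3 also passed without each of the 8 libraries in turn. Without GFP-positive library A their differences were -0.27, -0.26, -0.20 and -0.24, and without library B -0.31, -0.32, -0.30 and -0.32. Sf3b1 was thus higher after doxycycline in unsorted cells and did not pass between sorted groups, while Sf3b3 and Hnrnpl were lower in GFP-positive cells and did not pass in unsorted cells.

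**Figure D4:**
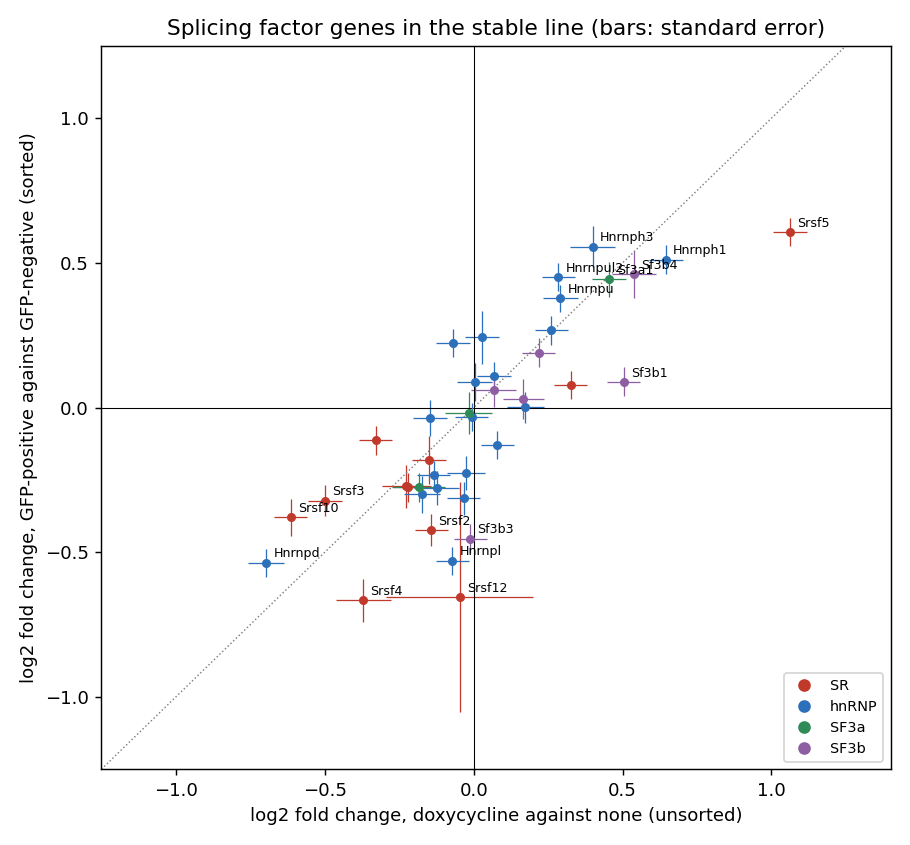
Log2 fold change after doxycycline in unsorted cells (horizontal) against that between GFP-positive and GFP-negative cells (vertical) for the 40 genes, with standard errors as bars, families in colour and a dotted line of equal change. Srsf5 lies at 1.06 and 0.61, Hnrnpd at -0.70 and -0.54, and Sf3b3 and Hnrnpl lie near 0 on the horizontal axis and at -0.45 and -0.53 on the vertical one.

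The transient comparison asked what 24 h of mDUX changed relative to the control. No member passed: 0 rose and 0 fell of 40 by edgeR, against 2.14% of all 14979 genes tested, DESeq2 also called 0, and 1 member had an unadjusted p under 0.05. That member was Srsf12, at 1.74 and 1.68 CPM in the controls and 2.88 and 2.36 with mDUX (log2 fold change 0.62 ± 0.25, adjusted p = 0.717). Next by p were Srsf4, at 32.5 and 21.5 against 18.7 and 21.4 CPM (-0.43 ± 0.20), Hnrnph3, at 63.6 and 32.3 against 30.9 and 32.5 CPM (-0.59 ± 0.30), and Hnrnpa3, at 48.6 and 25.7 against 27.4 and 23.4 CPM (-0.54 ± 0.29). In these last 3 genes control library A was high and control library B lay close to the mDUX libraries. The 2 genes with the largest stable-line changes had 360 and 348 against 388 and 379.7 CPM for Srsf5 (0.12 ± 0.09) and 486 and 184 against 177 and 178 CPM for Hnrnpd (-0.92 ± 0.55, adjusted p = 0.942).

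The 2 transient controls differed from each other in most hnRNP genes. As a share of gene reads, 19 of 20 hnRNP genes were higher in control A than in control B, 10 of them over 1.2 times, with a median ratio of 1.21, while the median was 1.01 over SR, 0.992 over SF3a and 0.879 over SF3b genes and 0.949 over all genes tested, of which 15.5% were over 1.2 times higher. The ratio was 2.52 for Hnrnpd, 2.12 for Hnrnpul2, 1.88 for Hnrnph3, 1.82 for Hnrnpa2b1 and 1.80 for Hnrnpa3. Summed over the class, hnRNP genes took 1.19% of gene reads in control A, 0.895% in control B and 0.886% and 0.917% with mDUX. SR genes took 0.357%, 0.346%, 0.360% and 0.363% in the same order. Control A also carried 2.35% of its counted reads in ribosomal RNA repeats against 0.0768% in control B and 0.0628% and 0.0583% with mDUX, and the part of this in the hnRNP values was not tested. Against control A alone, 18 members were lower and 0 higher, against 9.02% of all genes lower, namely 16 of 20 hnRNP genes and the SR genes Srsf4 and Srsf11, with Hnrnpd at -1.47 ± 0.08. In that fit the lone control is assumed to vary like the mDUX libraries, so its error leaves out the gap between the controls. Against control B alone 0 members passed, against 3.92% of all genes in either direction. The count of transient calls among hnRNP genes thus depended on which control was used.

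**Figure D5:**
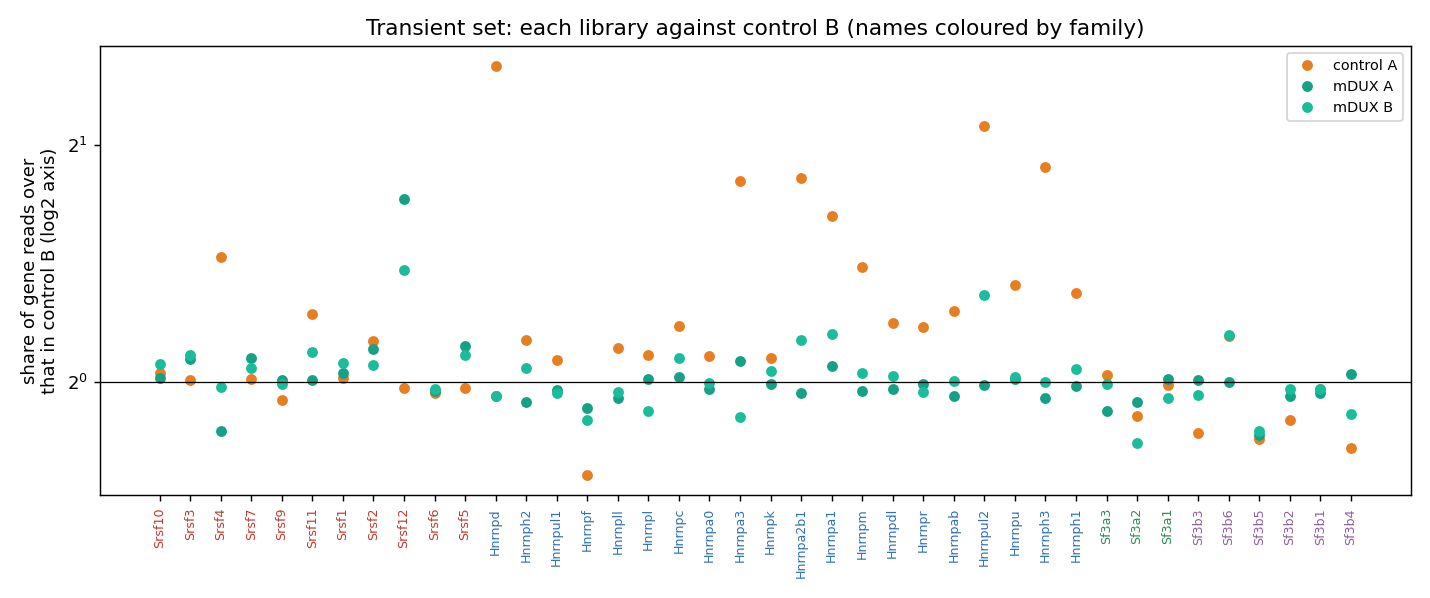
Share of gene reads of each of the 40 genes in control A and in both mDUX libraries, divided by its share in control B (log2 axis), with gene names coloured by family as SR (red), hnRNP (blue), SF3a (green) and SF3b (purple). Control A lies above 1 for 19 of 20 hnRNP genes, up to 2.52 for Hnrnpd, while both mDUX libraries lie near 1 for most genes.

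Levels of the same member in different tables were often far apart. In length-scaled CPM, Sf3a3, the SF3a subunit that binds near the branch site, stood at 14.2 and 14.7 without doxycycline, at 147.9 and 150.3 in GFP-negative cells and at 121 and 118 in the transient controls. On the same scale Hnrnpf was at 192 and 193, 112 and 114, and 17.8 and 23.3, and Hnrnpa1 at 107 and 112, 40.6 and 39.9, and 18.1 and 11.1, in the same order. Hnrnpd and Hnrnpm, at 25.4 and 27.4 and at 30.4 and 28.8 without doxycycline, were 2.88 and 3.28 times higher in GFP-negative cells. In all, 13 members were over 2-fold apart between GFP-negative cells and cells without doxycycline, 10 of them higher in GFP-negative cells. The share of all genes that far apart on this scale was not counted. In the joint fit, which is TMM-scaled, the median size of the log2 difference was 0.87 over the members and 0.99 over all genes. In the joint fit 29 members were higher in GFP-negative cells and 8 lower. Of all 17820 genes tested 77.8% passed in either direction, 7768 as higher and 6096 as lower. With gene totals only, 20 members were higher in GFP-negative cells than without doxycycline and 15 lower. All genes then gave 79.6% in either direction, 5069 higher and 9117 lower. These groups differ in doxycycline, in sorting and in the table they were deposited in, and the 3 cannot be told apart, so no change of a member is read from this comparison.

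Retrocopies bear on single values, since the sources used here do not state how reads matching several places were counted. Of the 40 members, 11 had at least 1 annotated processed pseudogene with 95% identity over 125 bases or more, and 29 had none among 10256 searched. Hnrnpa3 had 26 such copies, Hnrnpa1 had 9, Hnrnpf had 6, and Srsf3 and Hnrnpr had 3 each. Hnrnpa3, Hnrnpa1 and Hnrnpf were also 2.88, 7.51 and 9.36 times higher without doxycycline than in the transient controls, which had shorter reads, and Sf3a3, with 0 copies, was at 0.121 times. Srsf2, also with 0 copies, was at 2.39 times, and Hnrnpr, with 3, at 0.658 times. The part of read length or copies in these values was not tested. Counts of Hnrnpa3, Hnrnpa1 and Hnrnpf are therefore uncertain. Of the members named for the largest changes, Srsf5 and Sf3b4 had 1 copy each, Srsf10 had 2, and Hnrnph1, Hnrnpd, Sf3b1, Sf3a1, Hnrnpl and Sf3b3 had 0. Copies matched 51.7% of the Srsf5 transcript, 66.6% of that of Sf3b4 and 14.6% of that of Srsf10. For Hnrnpf, Hnrnpa1 and Hnrnpa3 these shares were 52.0%, 50.4% and 21.4%, so counts of Srsf5 and Sf3b4 are uncertain too. The same holds for Hnrnpk, Hnrnph2 and Hnrnpc, with 46.4%, 33.7% and 31.8% of the transcript matched. For Srsf3 and Hnrnpr the shares were 18.8% and 8.75%. Exons of 15 members overlap an annotated gene on the other strand, namely Hnrnpab, Hnrnpd, Hnrnpf, Hnrnph3, Hnrnpk, Hnrnpl, Hnrnpr, Hnrnpu, Sf3a2, Sf3b2, Sf3b3, Sf3b4, Srsf1, Srsf2 and Srsf4. Those of 4, Hnrnpa3, Hnrnpm, Hnrnpul2 and Sf3b3, overlap one on the same strand. The sources used here do not state whether counting used strand, so reads of both cannot be told apart.

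Genes of other spliceosome parts and of further splicing regulators and kinases were called in both directions. Pooled, their shares were near those of all genes, while single lists departed from them. Of 150 genes in 11 lists, 1 of 145 tested rose and 0 fell in the transient set, 45 rose and 48 fell of 145 in the unsorted set and 49 rose and 53 fell of 144 in the sorted set. All genes tested gave 2.14% in the transient set, 34% higher and 31.1% lower in the unsorted set and 34.3% and 32% in the sorted set. Larger changes than in any member occurred in single genes. Aqr, an intron-binding helicase, rose by 3.48 ± 0.06 on the log2 scale after doxycycline and by 3.61 ± 0.06 between sorted groups, and was the 1 gene that rose in the transient set (0.78, adjusted p = 0.00378 by edgeR). Snw1, a cofactor of the catalytic steps, rose by 2.92 ± 0.07 and 1.88 ± 0.06, in a list of Prp19 complex and catalytic step factors of which 9 of 21 rose and 6 fell in unsorted and 11 rose and 5 fell in sorted cells. Genes of hnRNP proteins under other symbols rose in 6 of 17 cases and fell in 5, and in the sorted set rose in 6 and fell in 9. Rbmx, on the X chromosome, led with 2.08 ± 0.08 and 2.90 ± 0.06, and Ptbp3, a polypyrimidine tract protein, fell by 0.98 and 0.79. Among kinases that phosphorylate SR proteins, 6 of 9 rose and 2 fell after doxycycline, and 3 of 8 tested rose and 0 fell between sorted groups. Clk3 rose by 1.49 ± 0.09 and 1.26 ± 0.06, while Srpk1 fell by 0.55 in unsorted cells.

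The shares of all genes were again 34% higher and 31.1% lower in unsorted and 34.3% and 32% in sorted cells. Of the ring proteins, Sm and LSm, 0 of 14 rose and 8 fell in unsorted cells and 1 rose and 7 fell in sorted cells, with Lsm6 falling by 0.88 and 0.86. In the U1 particle 3 of 9 rose and 1 fell, then 4 and 2, with Snrpc at 2.21 ± 0.10 in unsorted cells and Luc7l2 falling by 0.84 and 0.52. Other U2 and branch site factors, the partners of SF3a and SF3b, rose in 4 of 14 cases and fell in 4 in unsorted cells and rose in 5 and fell in 8 in sorted cells. Zrsr1, a U2AF-related gene, rose by 1.21 ± 0.06 and 1.19 ± 0.07, Ddx42 by 0.62 ± 0.06 in unsorted cells, and Ddx46 fell by 0.74 in sorted cells. The U4/U6.U5 particle had 6 of 17 higher and 4 lower, then 5 and 5, with Prpf31 at 0.78 ± 0.07 and 0.56 ± 0.05 and Txnl4a falling by 0.92 in unsorted cells. Minor spliceosome genes had 2 of 8 higher and 1 lower, then 3 and 3, with Rnpc3 at 1.45 ± 0.08 in unsorted cells and Pdcd7 at 1.11 ± 0.07 and 1.04 ± 0.07. SR-related proteins had 5 of 18 higher and 7 lower, then 5 and 6, with Tra2b, a splicing activator, at 0.71 ± 0.05 in sorted cells and Acin1 falling by 0.43 and 0.58. Exon junction genes had 1 of 5 higher and 2 lower, then 3 and 1, and regulators known from single cell types 3 of 14 higher and 8 lower in both sets.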

How the data were processed

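RNA of 12 libraries was read as 50 bp single-end (transient) or 125 bp paired-end reads (stable line) from a stranded poly(A) kit, per the labels' protocols. Raw read counts per gene and repeat family were used from 3 deposited tables, per the file headers. The authors' log2 fold changes, 12 rlog columns, mean normalized signal, test scores and p-values, deposited beside them, were not used. Novoalign 2.8, DESeq2 and mm10 are named without a role, per the submitters' processing notes. The sources used here do not give the counting tool or its handling of multiple matches.

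Genes and repeats were fitted together with edgeR 4.0.16 (R 4.3.3; glmQLFit robust, glmQLFTest), library sizes and TMM factors coming from genes, filterByExpr with a minimum count of 10 and total of 15, and Benjamini-Hochberg adjustment over all genes tested (threshold 0.05). Each main comparison used its own 4 libraries. A standard error is the log2 fold change divided by the square root of F. DESeq2 1.42.0, other scalings and filters, and leaving out each library were alternatives. The tests were tested on simulated data. Columns index libraries from 0 and titles from 1, so columns were tied to groups, not replicates. Deviations of same-letter libraries had correlations of -0.15, -0.02 and -0.04. Since letters were not matched between groups, these values cannot show whether libraries were paired. No block was used in the main fits. Merged exons, coordinates and pseudogenes are from GENCODE on GRCm38, with blastn 2.17.0 for retrocopies. Members and lists were chosen with earlier results of these data known. Per-library values are given for the 6 largest called rises and falls of each stable-line comparison, the 4 smallest transient p and the 4 highest levels, and for others named in the text after their values were seen. Genes named from the lists of other splicing genes are among the largest called changes of their list.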

Additional observations from a re-analysis of the deposited data

Results flagged for a closer look

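The test of the difference between the sorted and the unsorted log2 fold change, in a fit of 8 libraries, passed for 13 of 40 members, against 30.5% of all genes, and the values below are sorted minus unsorted on the log2 scale. The median of all genes in this contrast was -0.13. Among hnRNP genes the difference was -0.54 for Hnrnpl, -0.36 for Hnrnpa0, -0.29 for Hnrnpa3, -0.29 for Hnrnpdl, -0.26 for Hnrnpr, -0.22 for Hnrnph1 and 0.21 for Hnrnpc. It was -0.54 for Srsf5, -0.38 for Srsf4, -0.37 for Srsf2 and -0.33 for Srsf6. For the SF3b genes Sf3b3 and Sf3b1 it was -0.53 and -0.50. With median-ratio size factors the values of Hnrnpa3 (-0.14), Hnrnpdl (-0.15), Hnrnph1 (-0.08), Hnrnpr (-0.11), Srsf4 (-0.24) and Srsf6 (-0.19) no longer passed. The cause of that shift was not tested.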

How the results depend on the processing

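With gene totals only, 6 members rose and 25 fell in the unsorted, 7 and 28 in the sorted set, and 15 were lower in GFP-negative than in uninduced cells. With repeats in the library size these were 4 and 29, and 7 and 25. At 1.5-fold or more they were 2 and 2, and 1 and 1. Directions that turned in the unsorted set were Hnrnpr (-0.049 with gene totals, -0.18 with repeats), Sf3b2 (-0.0041 and -0.14) and Sf3b5 (-0.056 and -0.19), and with repeats only Hnrnpab (-0.093), Hnrnpu (-0.062), Hnrnpul2 (-0.069) and Srsf6 (-0.027). In the sorted set they were Hnrnpa1 (-0.0074) and Hnrnpc (-0.027) with gene totals and Sf3b2 under both (-0.060 and -0.016). These scalings shift all genes by their construction. In the transient set 1 member fell with no filter beyond 1 read, and so did 91 of all 27776 genes. Counts of calls over all genes also moved between the settings given here and below. The member counts therefore show only how far calls depend on the setting.

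Leaving out 1 library at a time gave 0 to 18 transient falls and 0 rises, 12 rises and 7 to 9 falls in the unsorted set, 9 to 13 rises and 13 to 19 falls in the sorted set, and 27 to 29 members higher and 6 to 11 lower in GFP-negative than in uninduced cells. The 18 came without control B, and 7 without doxycycline library B. In the difference between effects it gave 0 to 12 higher and 4 to 13 lower, with 12 higher and 4 lower without GFP-positive library A or B, and median-ratio factors gave 6 and 6. Unsorted calls lost without some library were those of Hnrnpf (adjusted p up to 0.271), Hnrnph2 (0.218), Hnrnpr (0.0959), Hnrnpul1 (0.151), Sf3b5 (0.624), Srsf1 (0.248), Srsf2 (0.126) and Srsf9 (0.4998), the highest values coming without doxycycline library A for Hnrnpr and Hnrnpul1 and without B for the others. Sorted calls so lost were those of Hnrnpa1 (0.461 without GFP-positive A), Hnrnpa3 (0.0591), Sf3b2 (0.101) and Srsf9 (0.108), all 3 without GFP-negative A, and Hnrnpdl (0.198 without GFP-negative B).

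With the replicate block by column letter, 1 transient member fell, and the unsorted (13 and 12) and sorted (11 and 16) counts stayed. The letters only name libraries. With crossed letters, tried after seeing the data, 0 transient members passed. Mean levels per length with the longest transcript, and with the deposited length (chosen after seeing the data), were 323.9 and 389.0 for Hnrnpab, 421 and 376 for Hnrnpa2b1, 254 and 218 for Srsf2 and 246 and 244 for Hnrnpc. With the longest transcript, Hnrnpa2b1 thus ranked above Hnrnpab. With 2 libraries a group, small changes are not reliably resolved. Some that passed, such as Hnrnpf at -0.13 in the unsorted and Hnrnpdl at -0.13 in the sorted set, lost their call without 1 library.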
